A study of Homo sapiens with 6 samples.

Results

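The genes described here are the protein-coding genes of the spliceosome core and of the heterogeneous nuclear ribonucleoproteins (hnRNPs), chosen by official symbol as those that start with HNRNP, SF3A, SF3B, SNRP or PRPF, or with LSM followed by a number. The rule gave 72 genes, and 71 of the 25420 genes in the deposited tables met it: 25 HNRNP, 3 SF3A, 6 SF3B, 12 SNRP, 12 PRPF and 13 LSM genes. HNRNPA1L3 had no entry. MOLM-13 cells, an established human acute myeloid leukaemia line, were kept for 2 h in 10 µM C646, an inhibitor of the histone acetyltransferases CBP and p300, or in the solvent DMSO, with 3 replicates each. Both groups received 100 µM 4-thiouridine (4sU) during the last 1 h, and RNA was sequenced from the 3′ end after alkylation (SLAM-seq). Where 4sU was built into RNA in that hour, sequencing shows C instead of T. A read with at least 1 such change (T > C read) was counted as newly synthesized mRNA. Reads that show such a change for other reasons can be among them. All 6 libraries received 4sU, so the share of such reads was not measured. The comparison asks which of these genes changed in newly synthesized mRNA and in total mRNA after short inhibition of CBP/p300.

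Introns are removed by the spliceosome, which is assembled on each intron from small nuclear ribonucleoproteins (snRNPs). The snRNPs named U1, U2, U4 and U5 each carry a ring of Sm proteins, encoded by SNRP genes, and U6 carries a ring of LSM proteins. U1 recognizes the start of the intron and U2 the branch site, where the SF3A and SF3B proteins of U2 hold the snRNP on the RNA, and many PRPF proteins act in the later complexes that join U4, U5 and U6. The hnRNPs coat nascent transcripts and influence which splice sites are used, and several of them also act in RNA export, translation and stability.

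Reads on annotated 3′ UTRs numbered between 7252597 and 10225448 per library, and T > C reads made up 8.74% to 8.86% of them in DMSO and 6.34% to 6.71% in C646. All 7 marker genes of the line that were looked up (CD33, FLT3, HOXA9, MEIS1, SPI1, LYZ and PTPRC) had reads in every library, whereas CD3E and KRT19, markers of other lineages, had none. Replicates are separate samples by their labels, which do not say whether they came from separate cultures, and p-values then measure only the spread between these samples. In libraries made from bulk cells, fewer cells with a transcript and less of it per cell cannot be told apart. Of the 71 genes, 59 had enough T > C reads to be tested, with a mean of 11.7 to 1810 T > C reads per library and a median of 98.5, and 62 were tested in all reads. HNRNPCL1, HNRNPCL2, HNRNPCL3, HNRNPCL4, LSM2 and PRPF31 were listed at 0 in every library, and a count of 0 allows up to 3 reads by counting error alone. HNRNPR had 7 reads over all 6 libraries, PRPF8 13, LSM14A 69, PRPF40B 69, HNRNPL 127 and PRPF18 483, and none of these 6 was tested in T > C reads. PRPF8, LSM2 and PRPF31 encode proteins that splicing requires in every cell, and their counts are given only as listed. In the annotation used, 7 members also have entries on alternative contigs of the build (HNRNPCL2, HNRNPCL3, HNRNPCL4, LSM2, LSM14A, PRPF8 and PRPF31), and all 7 are among the 12 without a test in T > C reads. How such entries act on read assignment was not tested, so that the limit of 3 reads may not hold for them.

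Relative to all reads, the log2 fold change of newly synthesized mRNA was below 0 in 52 of the 59 tested spliceosome and hnRNP genes (88.1%), beside 82.9% of all tested genes, and most of the 59 were not called. A gene was called changed when its adjusted p in edgeR's quasi-likelihood test was at most 0.01 and its log2 fold change was 1 or more in either direction, with T > C reads scaled to all reads of the library. By this rule 13 of the 59 tested members fell (22.03%), where 33.0% of all 7722 tested genes were called lower, and 1 rose (1.69%), where 2.97% of all genes were called higher. At an edgeR adjusted p of 0.01 without a limit on the fold, 30 members were lower and 1 higher, beside 2931 and 296 of the 7722 genes. At an unadjusted edgeR p under 0.05, 40 members were lower and 2 higher, beside 54.8% and 6.02% of all genes. The median log2 fold change of the 59 members was -0.67, against -0.83 for all tested genes, and 41 of the 59 lay above the median of all genes. The fallers were LSM14B, HNRNPAB, SF3B4, HNRNPLL, SF3A2, PRPF6, SNRPA, SNRPC, LSM11, SF3A3, PRPF4, SF3B5 and SF3B2, and the 1 riser was HNRNPK. Several of these calls were lost when a library was left out, with fewer libraries in each fit. The number called lower was 8 without DMSO replicate 2 and 9 without DMSO replicate 1 or C646 replicate 3. It was 10 without any of the other 3. Among these were genes not called with all 6 libraries, SNRPA1 without DMSO replicate 2 and SF3B3 without DMSO replicate 1 or C646 replicate 2. HNRNPAB, HNRNPLL, SF3B4, SNRPA and SNRPC were called whichever library was left out, and LSM11 was called only with all 6. PRPF6 lost its call without C646 replicate 1 or 3 or DMSO replicate 1 or 2, and PRPF4 without replicate 1 of either group. SF3A2 lost it without C646 replicate 3 or DMSO replicate 1 or 2, SF3A3 without C646 replicate 3 or DMSO replicate 1 or 3, LSM14B without replicate 2 of either group or DMSO replicate 3, and SF3B2 and SF3B5 without replicate 2 of either group. Values of the DMSO and C646 libraries did not overlap in 41 of the 59 members, a pattern seen in 62.3% of all tested genes.

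**Figure D1:**
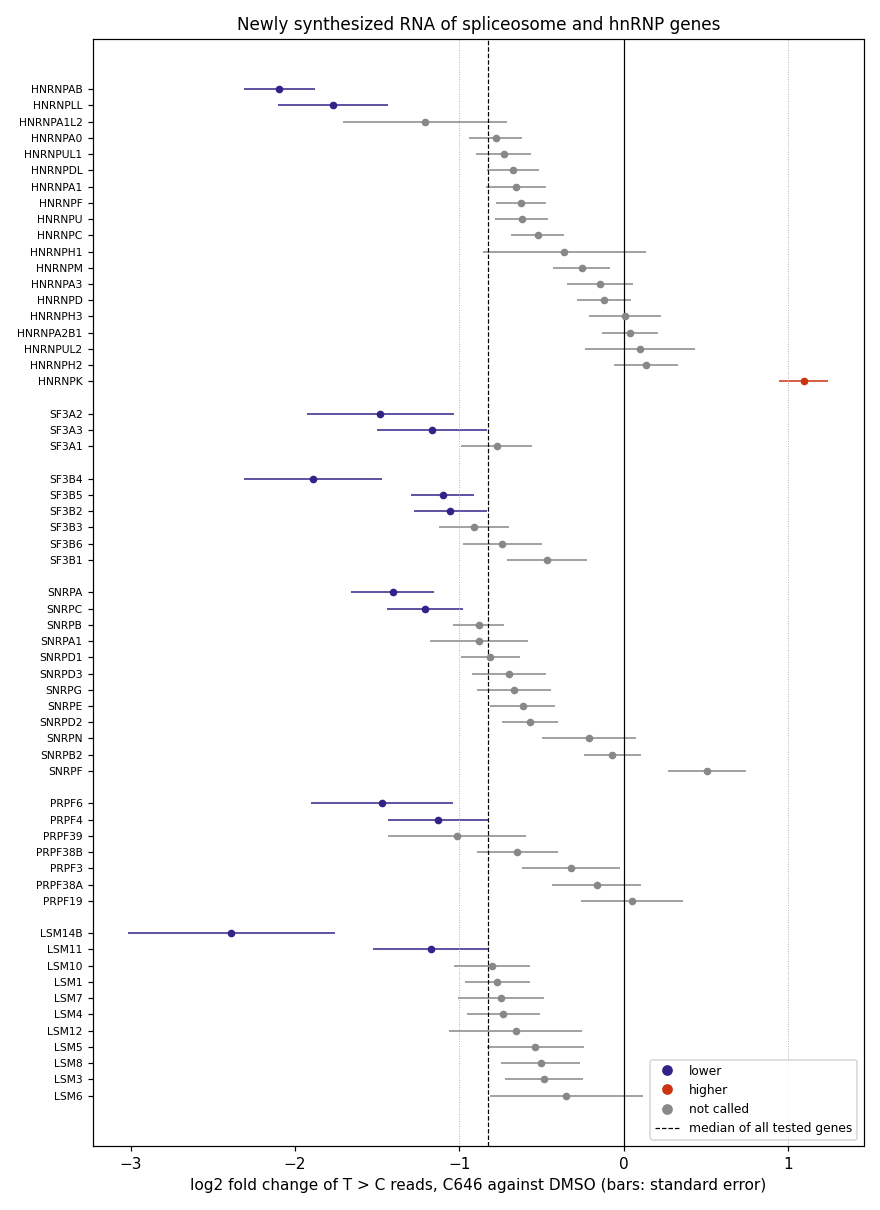
Log2 fold change of T > C reads in C646 against DMSO (x axis; bars, standard error; 3 libraries per group) for 58 of the 59 tested members, sorted within HNRNP, SF3A, SF3B, SNRP, PRPF and LSM genes from top to bottom. Dotted lines mark -1 and 1 and the dashed line the median of all tested genes at -0.83, with 40 of the 58 to its right; the values are relative to all reads of a library, and scaling by the T > C reads themselves moves the median of all genes to 0.01 and that of the members to 0.17.

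How T > C reads are scaled sets the sign of most of these values. Scaling by all reads keeps a loss shared by most genes, whereas trimmed-mean (TMM) scaling on the T > C reads themselves removes it and moved the median of all genes from -0.83 to 0.01. On that second scale 18 of the 59 members lay below 0 (30.5%, beside 49.7% of all genes). Their median was 0.17, with 1 member called lower (7.80% of all genes) and 2 called higher (9.14% of all genes). HNRNPAB was the one still called lower, at a log2 fold change of -1.26, and HNRNPK at 1.93 and SNRPF at 1.35 were the ones called higher. This scaling shifts all genes of a library alike, so that the order of the subfamilies is the same on both scales by construction. The median was -1.17 for SF3A and -0.98 for SF3B relative to all reads, and -0.32 and -0.14 relative to T > C reads. It was -0.73 for LSM, -0.68 for SNRP, -0.65 for PRPF and -0.52 for HNRNP relative to all reads, and turned to 0.11, 0.16, 0.19 and 0.32 relative to T > C reads. Relative to the median of all genes, the HNRNP median thus lay 0.30 higher on the log2 scale and the SF3A median 0.34 lower, with 3 genes in SF3A and no test of either list.

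Promoter sequences of 61 members were at hand from RefSeq (GRCh38.p14, 250 bases before to 50 after the start of the gene). CBP takes its name from binding to CREB, a factor that recognizes the sequence TGACGT, and ETS factors, which drive many housekeeping promoters, recognize CCGGAAG. Both were searched on both strands. TGACGT stood in 10 of 61 member promoters (16.4%), against 9.64% of 27305 promoters of all genes, and CCGGAAG in 20 of 61 (32.8%), against 12.2% of all genes. The 27305 genes were not filtered by gene type or expression, whereas the members are protein-coding, and no set of like expression was compared. The full palindrome TGACGTCA, which holds the shorter motif within it, was found in no member promoter and in 2.25% of all promoters. The windows of 30 bases below are shown for the hnRNP genes with the largest values in T > C or all reads and for Sm gene SNRPB, with the TGACGT match or its reverse complement in capitals.
HNRNPK (chr9:83980312-83980341, minus strand): cgtcgccttgatTGACGTggcctcgggcca
HNRNPA2B1 (chr7:26200797-26200826, minus strand): tacgcgacggccTGACGTagcggaagacgc
HNRNPH2 (chrX:101408188-101408217, plus strand): cgagatctcacaTGACGTaggcgctcacgt
SNRPB (chr20:2470910-2470939, minus strand): aaggctctccttACGTCAaagccggatgtt

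Of the 8 tested members with TGACGT none was called lower in T > C reads, and their log2 fold changes ran from -0.88 to 1.10 with a median of -0.32. Of the 43 tested members whose promoter lacked it 13 were called lower, and the median was -0.70, beside 33.0% of all tested genes called lower. Of the 19 tested members with CCGGAAG 7 were called lower, with a median of -0.77, and of the 32 without it 6 were called lower, with a median of -0.63. CCGGAAG stood in the promoters of 6 of the 9 SF3A and SF3B genes, and the windows below show it in capitals, in either orientation, for the 4 of them that were called lower.
SF3A2 (chr19:2236804-2236833, plus strand): tctcatttgccCCGGAAGtgctttctttgc
SF3A3 (chr1:37990072-37990101, minus strand): gtcccggggcaCTTCCGGcactcgcggaac
SF3B2 (chr11:66052300-66052329, plus strand): atacggcgccaCCGGAAGttccggcaagtg
SF3B4 (chr1:149927811-149927840, minus strand): ccgtcttcgccCCGGAAGtggaagtcgtgc

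A match of letters is not a bound site, and binding was not measured in these libraries. These counts describe the windows and were not tested. HNRNPA2B1 was also the 1 member whose promoter held a heat shock element, an inverted repeat of GAA that was found in 0.608% of all promoters, as shown here with the match in capitals.
HNRNPA2B1 (chr7:26200763-26200792, minus strand): gtggggggGAAGGTTCTAGAAaagcggcgg

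Among the 19 tested HNRNP genes, 2 fell in T > C reads (10.5%, beside 33.0% of all tested genes), 1 rose (5.26%, beside 2.97%) and 16 were not called. At an edgeR adjusted p of 0.01 without a limit on the fold, 9 of the 19 were lower, beside 2931 of all 7722 genes. HNRNPAB (Entrez 3182, 3′ UTR at chr5:178210624-178211183), an A/B type hnRNP, fell the most. It had 42.7, 30.8 and 27.7 T > C reads per 1000000 reads of the TMM-scaled library (CPM) in DMSO replicates 1, 2 and 3, and 7.14, 7.11 and 9.32 CPM in C646. Every C646 library lay below every DMSO library, at a mean of 7.86 ± 1.27 CPM against 33.7 ± 7.90 CPM (SD, n = 3 each), and the log2 fold change was -2.10 ± 0.22 (standard error) with an adjusted p of 3.93e-09 in edgeR. Its total mRNA was not called, with a log2 fold change of -0.24 ± 0.14.

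HNRNPLL (Entrez 92906, chr2:38563186-38564181), best known for changing the splicing of CD45 in lymphocytes, had 10.1, 9.57 and 8.48 T > C CPM in DMSO and 4.497, 2.33 and 1.59 in C646. The groups did not overlap, and it fell by 1.77 ± 0.34 on the log2 scale with an edgeR adjusted p of 6.55e-05. HNRNPH2 (Entrez 3188, chrX:101413339-101414140), of the H/F type that binds runs of G, stood near the top of the subfamily at 18.2, 23.0 and 17.5 T > C CPM in DMSO and 23.5, 19.5 and 21.4 in C646. Its groups overlapped, and the log2 fold change of 0.13 ± 0.19 was not called. Its 3′ UTR is shared with the readthrough gene RPL36A-HNRNPH2.

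HNRNPK (Entrez 3190, chr9:83968083-83969406), which binds runs of C and has roles from transcription to translation, was the only member to rise in T > C reads and had the most reads of its subfamily. Its T > C reads were at 119.8, 138 and 149 CPM in DMSO and at 212, 309 and 348 CPM in C646. No library of one group reached into the other, and the log2 fold change was 1.10 ± 0.15 with an edgeR adjusted p of 7.79e-07. Without C646 replicate 3 the value was 0.94, so that the gene was no longer called. Total reads stood at 1156, 1138 and 1369 CPM in DMSO and at 2108, 2808 and 2986 CPM in C646, a log2 fold change of 1.11 ± 0.15 with an edgeR adjusted p of 0.000161.

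A large share of the HNRNPK reads mapped to more than one place, and this share moved with treatment, at 24.9%, 32.1% and 34.5% in DMSO and 47.5%, 52.0% and 49.9% in C646. Without multimapped reads, an alternative chosen after seeing the data, the gene stood at 868, 773 and 897 CPM in DMSO and 1107, 1347 and 1497 CPM in C646. All C646 libraries still lay above all DMSO libraries, but the log2 fold change of 0.64 ± 0.14 was below the limit of 1, with an edgeR adjusted p of 0.004. The deposited tables do not split T > C reads by mapping, so the part of multimapped reads in the T > C value was not tested. Each T > C read of HNRNPK held on average 1.61, 1.47 and 1.60 changes in DMSO and 1.37, 1.28 and 1.34 in C646. Over all genes the libraries averaged 2.00 to 2.11 in DMSO and 1.87 to 1.91 in C646. Whether all T > C reads of HNRNPK stem from 4sU was not tested, so its rise may not be one of newly synthesized mRNA alone.

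The other HNRNP genes ran from -1.21 in HNRNPA1L2 to 0.10 in HNRNPUL2 in T > C reads, and none of them was called. HNRNPA2B1, chosen here after its values were seen, had 53.0, 39.5 and 55.3 T > C CPM in DMSO and 41.7, 53.1 and 57.3 in C646, with overlap of the groups. Its total reads were at 818, 705 and 1105 CPM in DMSO and at 1478, 1639 and 1820.4 CPM in C646, without overlap, and the log2 fold change of 0.91 ± 0.16 (edgeR adjusted p = 0.00107) stayed just under the limit of 1. The gene was called higher in all reads without DMSO replicate 3 or with scaling by all filtered reads. Multimapped reads made up 0.16% of its reads.

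**Figure D2:**
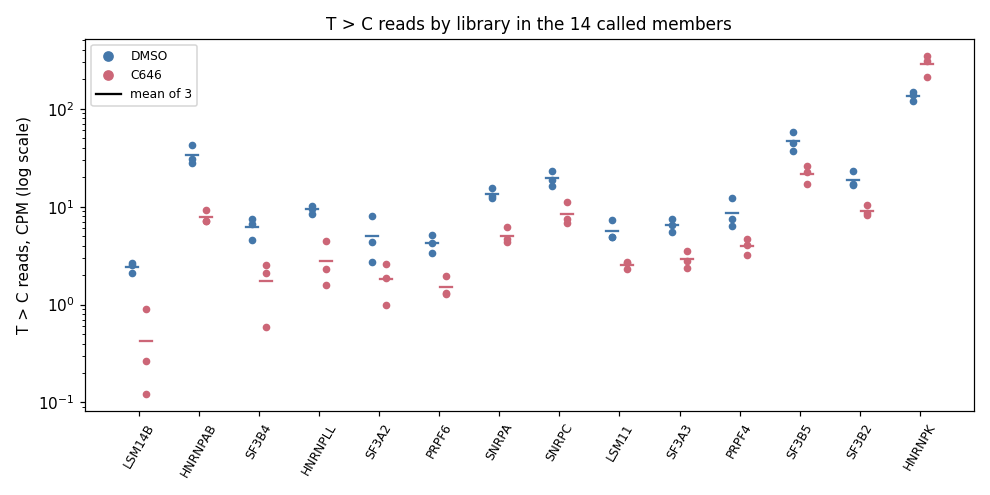
T > C reads in CPM (log scale; scaled to all reads of the library) of the 14 called members in the 3 DMSO libraries (blue) and the 3 C646 libraries (red), with a line at each mean. In 13 members every C646 point lies below every DMSO point, whereas HNRNPK stands at 119.8 to 149 in DMSO and 212 to 348 in C646.

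The SF3A and SF3B proteins belong to U2, and 5 of their 9 genes fell in T > C reads relative to all reads, beside 33.0% of all tested genes, whereas none of the 9 was called lower relative to T > C reads, beside 7.80% of all genes. SF3A2 (Entrez 8175, chr19:2248547-2248679) had 4.32, 8.04 and 2.69 T > C CPM in DMSO and 1.85, 2.57 and 0.992 in C646. The lowest DMSO library lay just above the highest C646 library, and the gene fell by 1.48 ± 0.45 on the log2 scale (edgeR adjusted p = 0.00634). It also had the lowest value of all members in total reads, at 97.2, 170.1 and 136 CPM in DMSO and 91.3, 77.2 and 55.6 CPM in C646. That log2 fold change of -0.85 ± 0.21 (edgeR adjusted p = 0.00661) was not past the limit of 1, but it was once C646 replicate 1 or DMSO replicate 1 was left out.

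SF3A3 (Entrez 10946, chr1:37956980-37958185) had 6.43, 5.55 and 7.54 T > C CPM in DMSO and 2.78, 3.55 and 2.38 in C646, without overlap, and it fell by 1.17 ± 0.33 (edgeR adjusted p = 0.00418). SF3A1 (Entrez 10291, chr22:30331988-30334593) had more T > C reads and tight replicates, at 16.9, 16.1 and 14.8 CPM in DMSO and 9.26, 9.68 and 9.03 CPM in C646. The groups lay well apart, yet its log2 fold change of -0.77 ± 0.22 was not past the limit. Total reads of SF3A1 and SF3A3 differed little between groups, at log2 fold changes of -0.09 ± 0.13 and -0.02 ± 0.15.

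In SF3B the falls were in SF3B4, SF3B5 and SF3B2. SF3B4 (Entrez 10262, chr1:149923317-149923541) had 6.64, 4.57 and 7.54 T > C CPM in DMSO and 2.51, 2.08 and 0.595 in C646, and fell by 1.89 ± 0.42 (edgeR adjusted p = 0.00042). C646 replicate 3, with 6 T > C reads, was the lowest library, and the groups did not overlap. SF3B5 (Entrez 83443, chr6:144094881-144095236), a small subunit and the SF3B gene with the most reads, had 37.3, 58.5 and 44.4 T > C CPM in DMSO and 25.9, 16.9 and 22.4 in C646. All C646 libraries were lower, and it fell by 1.10 ± 0.19 (edgeR adjusted p = 2.42e-05).

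At the other end of the subfamily stood SF3B6 and SF3B1. SF3B6 (Entrez 51639, chr2:24067584-24067761), whose protein contacts the branch site, had 13.1, 11.8 and 16.6 T > C CPM in DMSO and 7.54, 10.2 and 7.14 in C646, a log2 fold change of -0.74 ± 0.24 that was not called. SF3B1 (Entrez 23451, chr2:197391974-197392302), the large scaffold that is recurrently mutated in myeloid malignancies, had 14.5, 13.4 and 13.7 T > C CPM in DMSO and 14.8, 8.21 and 7.44 in C646. C646 replicate 1 lay above every DMSO library and the other two below, and the log2 fold change of -0.47 ± 0.25 was not called.

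Of the 12 SNRP genes 2 fell in T > C reads (16.7%, beside 33.0% of all tested genes). Without the limit on the fold, 7 of the 12 were lower at an edgeR adjusted p of 0.01, beside 2931 of all 7722 genes. The 8 Sm genes, whose proteins form the ring shared by the snRNPs, had no call in T > C reads, and their log2 fold changes ran from -0.88 in SNRPB to 0.51 in SNRPF with a median of -0.64. The 4 genes for proteins of a single snRNP had a median of -1.04, and 2 of them fell, whereas SNRPA1 at -0.88 ± 0.30 and SNRPB2 lay within the range of the Sm genes. The difference between the classes was not tested, and in the odds described below each class had 1 member called lower. SNRPA (Entrez 6626, chr19:40765168-40765392), a protein of U1, had 12.3, 15.4 and 12.9 T > C CPM in DMSO and 4.36, 4.66 and 6.15 in C646. With no overlap it fell by 1.41 ± 0.25 (edgeR adjusted p = 3.42e-05). SNRPC (Entrez 6631, chr6:34773571-34773857), a protein of U1 that helps it to bind the start of the intron, had 23.4, 16.4 and 18.9 T > C CPM in DMSO and 11.1, 6.86 and 7.54 in C646, and fell by 1.21 ± 0.23 (edgeR adjusted p = 7.57e-05). SNRPB2 (Entrez 6629, chr20:16741006-16741772), which encodes a protein of U2, overlapped between groups at 38.5, 33.1 and 33.9 T > C CPM in DMSO and 29.6, 30.5 and 40.4 in C646. Its log2 fold change was -0.07 ± 0.17.

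SNRPB (Entrez 6628, chr20:2461635-2461928), which encodes SmB and had the most reads of the SNRP genes, stood at 80.4, 98.4 and 83.7 T > C CPM in DMSO and 51.8, 49.9 and 41.0 in C646. The groups did not overlap, and the log2 fold change of -0.88 ± 0.16 (edgeR adjusted p = 2.7e-05) was close to the limit but not past it. SNRPF (Entrez 6636, chr12:95866072-95866461), which encodes SmF, differed from the rest of the ring. Its T > C reads were at 8.85, 7.07 and 9.96 CPM in DMSO and 10.8, 11.9 and 14.1 CPM in C646, all C646 libraries above all DMSO libraries, but the log2 fold change of 0.51 ± 0.24 was not called (edgeR adjusted p = 0.0673). Its total reads rose from 159, 116 and 224 CPM to 338, 413 and 493 CPM, a log2 fold change of 1.32 ± 0.21 with an edgeR adjusted p of 0.000435. Multimapped reads made up 0.335% of its reads, and without them the value was again 1.32.

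Of the 8 tested PRPF genes 2 fell in T > C reads, beside 33.0% of all tested genes, and both encode proteins of the complex of U4, U5 and U6. PRPF6 (Entrez 24148, chr20:64032994-64033100) had 4.22, 5.13 and 3.37 T > C CPM in DMSO and 1.32, 1.96 and 1.29 in C646, and fell by 1.47 ± 0.43 (edgeR adjusted p = 0.00522). PRPF4 (Entrez 9128, chr9:113291661-113292905) had 12.1, 6.38 and 7.41 T > C CPM in DMSO and 3.17, 4.66 and 4.07 in C646, and fell by 1.13 ± 0.31 (edgeR adjusted p = 0.00293). In both genes the groups were apart, although DMSO replicate 1 was high in PRPF4.

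PRPF19 (Entrez 27339, chr11:60890548-60891165), a ubiquitin ligase that helps to activate the spliceosome, had 6.22, 5.41 and 4.31 T > C CPM in DMSO and 3.97, 5.76 and 6.75 in C646. PRPF38A (Entrez 84950, chr1:52416691-52418320) had 8.01, 9.57 and 7.27 T > C CPM in DMSO and 5.03, 7.84 and 9.13 in C646. Both overlapped between groups, with log2 fold changes of 0.05 ± 0.31 and -0.16 ± 0.27. The 3′ UTR of PRPF39 lies antisense to that of FKBP3, and that of PRPF40B to that of FMNL3.

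Of the 11 tested LSM genes 2 fell in T > C reads (18.2%, beside 33.0% of all tested genes), and no test compared their roles. Without the limit on the fold, 5 of the 11 were lower at an edgeR adjusted p of 0.01, beside 2931 of all 7722 genes. None of the 7 tested ring genes (LSM1 and LSM3 to LSM8), whose proteins bind U6 or, with LSM1, take part in the decapping of mRNA, was called in T > C reads, and their log2 fold changes lay between -0.77 and -0.35. The ring gene with the most reads, LSM7 (Entrez 51690, chr19:2321521-2321679), had 11.4, 12.5 and 7.67 T > C CPM in DMSO and 5.69, 6.86 and 6.25 in C646. LSM3 (Entrez 27258, chr3:14198117-14198369) had 9.59, 13.9 and 13.1 in DMSO and 9.65, 8.21 and 8.13 in C646. LSM6 (Entrez 11157, chr4:146189657-146190061) was thinly covered, at 2.42, 3.33 and 2.15 T > C CPM in DMSO and 1.45, 2.94 and 1.79 in C646. The groups were apart in LSM7 and overlapped in the other two.

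LSM14B (Entrez 149986, chr20:62134163-62135378), which encodes a cytoplasmic RNA-binding protein outside the ring, had the lowest value of all members. It had 2.11, 2.63 and 2.56 T > C CPM in DMSO and 0.265, 0.123 and 0.893 in C646, and fell by 2.39 ± 0.63 (edgeR adjusted p = 0.00209). The counts behind this were few, at 20, 19 and 19 T > C reads in DMSO and 2, 1 and 9 in C646. Its total reads were level, at 27.1, 21.6 and 28.4 CPM in DMSO and 32.0, 22.3 and 26.2 CPM in C646. LSM11 (Entrez 134353, chr5:157755265-157760709), which belongs to the U7 snRNP that shapes the 3′ ends of histone mRNA, had 7.38, 4.85 and 4.85 T > C CPM in DMSO and 2.65, 2.70 and 2.28 in C646, and fell by 1.17 ± 0.36 (edgeR adjusted p = 0.00647). LSM10, its partner in U7, was at -0.80 ± 0.23 and was not called.

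Fewer members were called in total mRNA than in T > C reads scaled to all reads. TMM centres all reads by construction. T > C reads centred in the same way gave 1 member called lower (7.80% of all genes) and 2 higher (9.14% of all genes). None of the 62 members tested in all reads was called lower by edgeR (1.88% of all 10851 tested genes were), and 3 were called higher (5.89% of all genes): SNRPF, LSM12 and HNRNPK. DESeq2 gave the same counts of 0 and 3, and at an adjusted p of 0.01 without a limit on the fold 4 members were lower and 7 higher, where 6.28% and 9.81% of all genes were. At an unadjusted p under 0.05, 8 members were lower and 15 higher, beside 20.5% and 22.1% of all genes. The median was -0.01 for the members and -0.00 for all genes, which TMM on all reads sets near 0 by construction. The groups did not overlap in 32 of the 62 members, as in 47.6% of all genes. LSM12 (Entrez 124801, chr17:44034635-44036207) had 36.0, 25.5 and 39.3 CPM in DMSO and 62.0, 75.4 and 114 CPM in C646, without overlap, a log2 fold change of 1.32 ± 0.22 with an edgeR adjusted p of 0.000637. Multimapped reads made up 95.4% of its reads, and without them 0.926 to 7.04 CPM were left in C646 and 0.808 to 2.36 in DMSO, with overlap of the groups, and the gene was no longer called (log2 fold change 1.35 ± 0.61, edgeR adjusted p = 0.107). Its T > C reads were at 3.90, 2.91 and 5.25 CPM in DMSO and 1.72, 3.31 and 2.58 in C646, with overlap and no call. Without multimapped reads SNRPF was thus the 1 member called higher in all reads. Of the 59 members tested in T > C reads, 5 had more than 20% multimapped reads (HNRNPA1, HNRNPA3, HNRNPK, LSM12 and SNRPG), and in the other 54 the largest share was 18.6%.

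**Figure D3:**
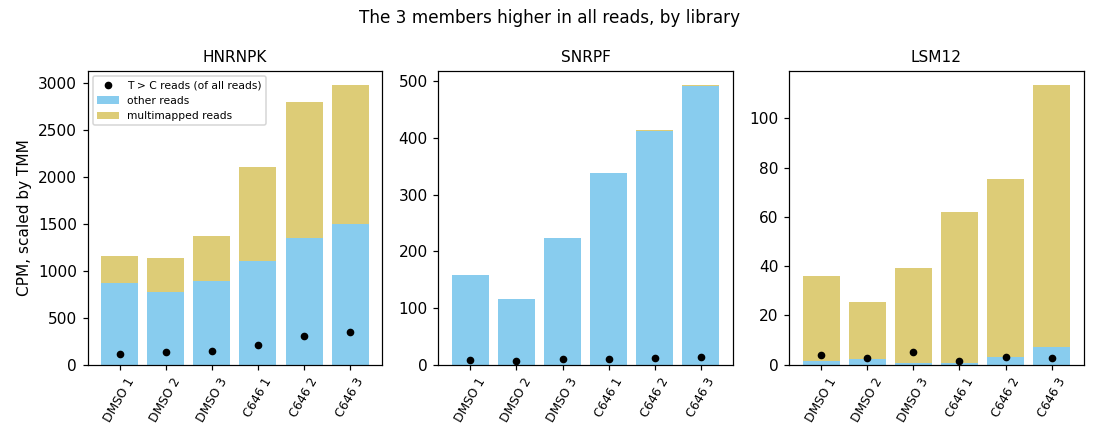
Reads in CPM (scaled by TMM on all reads) of HNRNPK, SNRPF and LSM12 in each library, split into multimapped reads and other reads, with T > C reads as points. In HNRNPK the multimapped share rises from 24.9% to 34.5% in DMSO to 47.5% to 52.0% in C646, in LSM12 nearly all reads are multimapped, and in SNRPF 0.335% are.

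**Figure D4:**
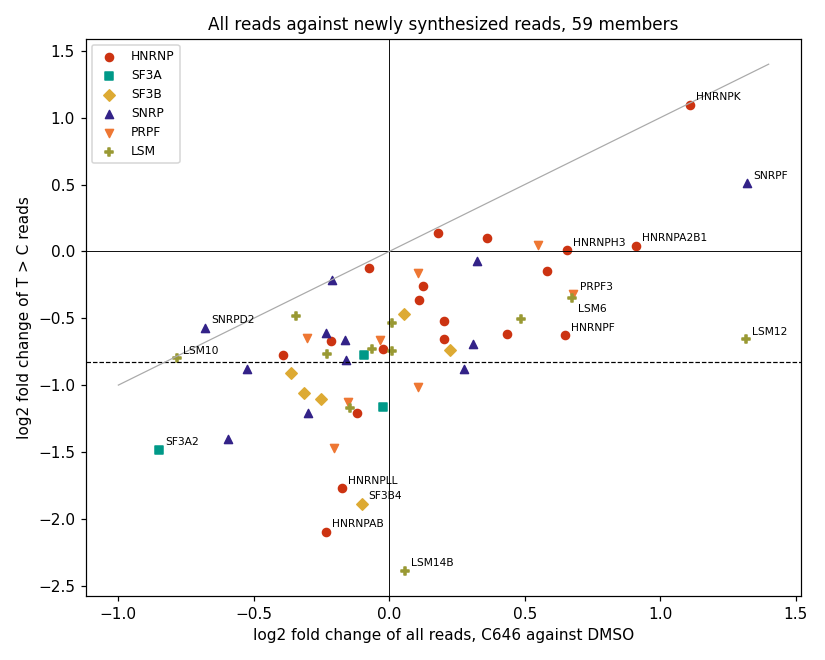
Log2 fold change in C646 against DMSO of all reads (x axis) and of T > C reads scaled to all reads (y axis) for the 59 members, by subfamily; the grey line marks equal change and the dashed line the median T > C change of all tested genes at -0.83. HNRNPK lies on the line of equal change at 1.11 and 1.10, SNRPF at 1.32 and 0.51, and LSM14B at 0.06 and -2.39.

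The share of T > C reads within each gene does not depend on how libraries are scaled against each other. It was tested as the odds of a T > C read in C646 against DMSO, with a library factor, in edgeR. The odds fell in 15 of 59 members, where 38.3% of all 7722 tested genes were called lower, and rose in none, where 0.790% of all genes were called higher. At an unadjusted p under 0.05 the odds were lower in 46 members and higher in 0, beside 64.8% and 1.88% of all genes. The median log2 change of the odds was -0.75 in the members and -1.004 in all genes. The shares of the DMSO and C646 libraries did not overlap in 45 of the 59 members, as in 66.7% of all genes. The calls overlapped in part with those of T > C reads, since 7 members were called lower in both, 6 in T > C reads and not in the odds (LSM11, SF3A2, SF3B2, SF3B5, SNRPA and SNRPC), and 8 in the odds and not in T > C reads (HNRNPF, HNRNPU, LSM12, LSM8, PRPF3, SF3B6, SNRPA1 and SNRPD3).

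HNRNPK kept its share, at 10.4%, 12.1% and 10.8% T > C reads in DMSO and 10.0%, 10.999% and 11.6% in C646, a log2 change of the odds of -0.03 ± 0.10. Its T > C and total reads thus differed between groups by a like amount. In SNRPF the share was 5.58%, 6.09% and 4.45% in DMSO and 3.21%, 2.88% and 2.85% in C646, a log2 change of the odds of -0.87 ± 0.19 that was not past the limit. HNRNPF, chosen here after its values were seen, had 22.6%, 27.8% and 18.9% T > C reads in DMSO and 9.88%, 9.49% and 8.48% in C646, and its odds fell by 1.54 ± 0.16 on the log2 scale (edgeR adjusted p = 6.28e-08). Its T > C reads were at a log2 fold change of -0.63 ± 0.15 and its total reads at 0.65 ± 0.18, neither of them called.

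In DMSO, the share of T > C reads of a member, averaged over the 3 libraries, ran from 2.06% to 36.4%, with a median of 8.52% in the 59 tested members and 13.3% in all tested genes. In C646 the medians were 5.24% and 7.37%. SNRPN was the lowest in DMSO, at 2.13%, 1.80% and 2.27%, and its 3′ UTR is shared with SNURF. The SNRP genes had a median of 6.69% in DMSO and the PRPF genes one of 12.3%.

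Genes of the same machinery under other symbols were counted beside the members. Of 55 further spliceosome components, 51 were tested in T > C reads, 16 of them fell (31.4%, beside 33.0% of all tested genes) and none rose (2.97% of all genes), with a median log2 fold change of -0.70. Of 7 hnRNP proteins under other symbols, all tested, 1 fell and none rose, with a median of -0.93. Of 10 genes for the assembly of snRNPs, 9 were tested, 4 fell (GEMIN7, GEMIN5, PRMT5 and GEMIN4) and none rose, with a median of -0.82. Scaled by T > C reads, the medians were 0.14, -0.08 and 0.02, and 1, 0 and 1 genes of these lists were called lower, beside 7.80% of all genes.

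PUF60, a helper of branch site recognition, had 15.7, 14.002 and 15.5 T > C CPM in DMSO and 3.97, 2.33 and 2.08 in C646, and fell by 2.45 ± 0.28 (edgeR adjusted p = 3.3e-08), but 99.9% of its reads were multimapped. SNRNP25, of the minor spliceosome, had 5.69, 6.10 and 3.23 in DMSO and 0.926, 1.10 and 0.794 in C646, and fell by 2.41 ± 0.46 (edgeR adjusted p = 7.1e-05). Both had groups far apart, whereas those of PLRG1 (log2 fold change 0.34 ± 0.37) and ZCRB1 (0.17 ± 0.46), the highest of the list, overlapped. PLRG1 was at 2.63, 3.60 and 4.04 T > C CPM in DMSO and 3.84, 3.06 and 5.95 in C646, and ZCRB1 at 2.74, 1.94 and 3.23 in DMSO and 1.85, 1.84 and 5.06 in C646. In all reads 1 gene of this list was called higher, BUD13, with 15, 13 and 27 reads in DMSO and 108, 112 and 166 in C646 (log2 fold change 2.68 ± 0.31, edgeR adjusted p = 4.52e-05). BUD13 was named after its values were seen and had too few T > C reads to be tested.

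SYNCRIP, also known as hnRNP Q, had 82.3, 85.8 and 76.6 T > C CPM in DMSO and 20.1, 30.02 and 29.2 in C646, and fell by 1.62 ± 0.17 (edgeR adjusted p = 5.79e-09), with the groups far apart. RALY, related to hnRNP C, had 4.43, 2.91 and 1.75 in DMSO and 2.25, 1.10 and 0.893 in C646, with overlap and no call. PCBP1, also known as hnRNP E1 and like HNRNPK a binder of runs of C, had 84.3, 70.8 and 79.3 in DMSO and 80.4, 70.3 and 80.7 in C646. PCBP1 was at a log2 fold change of -0.02 ± 0.15 with overlap of the groups, and it was not called.

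GEMIN7, of the complex that loads Sm rings onto RNA, had 3.58, 2.63 and 5.66 T > C CPM in DMSO and 0.794, 0.858 and 0.198 in C646, and fell by 2.70 ± 0.56 (edgeR adjusted p = 0.00019). It was also the 1 gene of these lists that was called lower in all reads, at a log2 fold change of -1.15 ± 0.19 (edgeR adjusted p = 0.000599). GEMIN5, which recognizes the RNA in that complex, had 4.53, 3.88 and 3.77 T > C CPM in DMSO and 0.132, 0.858 and 1.59 in C646, and fell by 2.16 ± 0.53 (edgeR adjusted p = 0.00111). The groups were far apart in both. CLNS1A (10.4, 10.7 and 12.4 T > C CPM in DMSO; 12.8, 13.0 and 10.5 in C646) and GEMIN8 (1.37, 1.25 and 0.808; 1.32, 1.59 and 0.694) overlapped and were not called.

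Use of alternative 3′ UTRs could be described in 1 member, HNRNPDL (Entrez 9987), in which at least 10% of the reads of a group fell on a second entry that does not overlap the main one. The main entry at chr4:82422564-82424883 held 84.9%, 86.6% and 82.2% of the reads in DMSO and 83.99%, 87.7% and 89.1% in C646. The second, at chr4:82428018-82428179, held 11.4%, 9.04% and 14.4% in DMSO and 10.7%, 9.59% and 8.11% in C646. The groups overlapped on both entries. Summed over its entries, HNRNPDL was at a log2 fold change of -0.67 ± 0.16 in T > C reads and -0.22 ± 0.12 in all reads, and was called in neither.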

How the data were processed

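With SLAM-Dunk (v0.4.1 in the submitters' processing notes), the authors mapped the 3′ end reads on GRCh38. They deposited, for each library, counts of all reads, T > C reads, conversions and multimapped reads on 58136 annotated 3′ UTR entries, without normalization. They also deposited a signal, the coverage of T positions, and reads as CPM, relative to all filtered reads, neither of them tested here. C646 libraries average 1.87 to 1.91 conversions per T > C read, and DMSO libraries 2.00 to 2.11. T > C reads here are thus those with at least 1 conversion. This is looser than in the study's own test, which took reads with 2 or more conversions, a count that could not be rebuilt from the tables used here. Counts were summed over the entries of a gene (Entrez identifier, 25310 of 25420 matched to a symbol). The place given for a gene is its entry with the most reads, which overlaps a UTR of the gene in GENCODE in 69 of 71 members.

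Differential expression was tested with edgeR 4.0.16 (filterByExpr, estimateDisp, glmQLFit, glmQLFTest, R 4.3.3) on all genes of the 6 libraries, with Benjamini-Hochberg adjustment over all tested genes. T > C reads were scaled by the TMM-scaled totals of all reads, and all reads by TMM. Standard errors were derived from the F statistic, as log2 fold change over its root. The odds were fitted on both read classes of every library, with 1 term per library. A count of 0 allows up to 3 reads, for counting error only. Scripts were tested on simulated data. Summaries and plots used Python 3.11.15, pandas 2.3.3, numpy 2.4.6 and matplotlib 3.10.9.

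The members, gene lists and tests were chosen with earlier results of these data known. Values per library are given for the 2 lowest and 2 highest members of each subfamily in T > C reads, its member with the most reads, members called higher in any test or lower in all reads, and the 2 lowest and 2 highest genes of each further list. Single values of 3 genes are not reported here, though the counts include them. Alternatives were DESeq2 1.42.0 or its size factors, TMM on T > C reads, scaling by all filtered reads, other filters, the entry with the most reads, a replicate block, leaving out each library and, chosen after seeing the data, leaving out multimapped reads. Replicate numbers were not taken to pair libraries. No batch or date is given in the sources used here. Any 2 libraries of a group differed by more than counting noise, with chi-square over degrees of freedom at 7.51 to 25.9, and none was counted as a duplicate.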

Additional observations from a re-analysis of the deposited data

How the results depend on the processing

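Over 16 alternatives, 1265 of 1415 values kept their direction and their side of the threshold. In T > C reads, TMM on T > C reads gave 1 member called lower, 2 called higher and a median of 0.17. It turned the values of LSM12 to 0.18, LSM3 to 0.36, LSM6 to 0.49, LSM7 to 0.10, PCBP1 to 0.82, PRPF38A to 0.67, SF3A1 to 0.070, SF3B1 to 0.38, SF3B6 to 0.10 and SNRPB2 to 0.77. This scaling centres T > C reads by construction. Scaling by all filtered reads gave 6 members called lower and a median of -0.45 in T > C reads and turned PCBP1 to 0.19, PRPF38A to 0.050 and SNRPB2 to 0.14. In all reads it gave a median of 0.20 and turned GEMIN5 to 0.12, HNRNPLL to 0.030, LSM11 to 0.060, PRPF4 to 0.050, PRPF6 to 0.0063, SF3A1 to 0.11, SF3A3 to 0.18 and SF3B4 to 0.10. The median of all genes moved alike, from -0.00 to 0.20 in all reads and from -0.83 to -0.62 in T > C reads. Why this scale differs from the main one was not tested. A minimum of 50 T > C reads left 6 members called lower in T > C reads and 9 in the odds, with fewer genes tested. Without a filter the median of all reads was 0.0082. Leaving out members with over 20% multimapped reads gave 0 called higher in T > C reads, 1 in all reads and a median of -0.029 in all reads, and leaving out multimapped reads gave 1 called higher in all reads.

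Leaving out each library in turn gave 8 to 10 members called lower and 0 to 1 higher in T > C reads, 0 to 1 lower, 3 to 4 higher and a median of -0.057 to 0.025 in all reads, and 12 to 17 lower in the odds, with fewer libraries in each fit. Without C646 replicate 3 HNRNPK lost its call in T > C reads (0.94), and without DMSO replicate 2 the calls fell to 8. SF3A2 was called lower in all reads without C646 replicate 1 or DMSO replicate 1. Over these fits, values in T > C reads ran from -0.21 to 0.34 in GEMIN8, -0.36 to 0.048 in PRPF38A, -0.23 to 0.020 in SNRPB2, -0.088 to 0.044 in PCBP1, -0.13 to 0.24 in PRPF19 and -0.51 to 0.41 in ZCRB1. In all reads they ran from -0.17 to 0.026 in GEMIN5, -0.076 to 0.18 in LSM14B, -0.054 to 0.14 in LSM7, -0.14 to 0.087 in SF3A3, -0.35 to 0.064 in SF3B4 and -0.0080 to 0.18 in SF3B1. In the odds they ran from -0.086 to 0.042 in HNRNPK, -0.045 to 0.58 in GEMIN8 and -0.18 to 0.048 in HNRNPH2.

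With the replicate number as a block, 13 members were called lower and 1 higher in T > C reads, 0 lower and 3 higher in all reads, and 15 lower in the odds, where PRPF4 was lost and PRPF39 gained. Libraries share only a number, since the deviations of same-numbered ones correlated at 0.030 to 0.065 in T > C reads and at -0.0014 to 0.23 in all reads. Every library correlated best with its own number in T > C reads, a hint from the data and not from the design, but not in all reads. DESeq2's test and size factors and the single entry with the most reads gave 13 lower and 1 higher in T > C reads.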

Other observations

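Genes with related symbols that are not protein-coding were left out by the rule, and 7 of them have entries in the tables. HNRNPUL2-BSCL2, a readthrough transcript, had 267, 216 and 215 reads in DMSO and 220, 183 and 176 in C646, with 30, 22 and 27 T > C reads in DMSO and 14, 4 and 10 in C646. HNRNPA1P10, a transcribed pseudogene of HNRNPA1, had 15, 11 and 12 reads in DMSO and 10, 24 and 11 in C646, of which 4, 6 and 2 and then 6, 14 and 6 were T > C reads. The other 5 had at most 4 reads in any library.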
